A study of Xenopus laevis with 12 samples.

Results

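The question addressed here was whether retinal ganglion cells of an eye whose own optic nerve was left intact differ, in their ribosome-bound mRNA, between frogs that had the opposite nerve crushed and frogs with no crush. The comparison used 7 of the 12 deposited libraries, chosen by their labels. The 4 contralateral libraries came from the left eyes of Xenopus laevis with a crush of the right optic nerve, taken 1, 3, 7 and 11 days after the operation. The 3 libraries without crush were a naive library (both eyes, no operation, no day given), and the left and right eyes of frogs killed 1 day after a sham operation. In all 7, ganglion cells carried tg(islet2b:EGFP-RPL10a), a green fluorescent large-subunit ribosomal protein driven by the islet2b promoter, in F1 progeny of single female founders grown past metamorphosis for over 6 months. Tagged ribosomes were pulled down from dissected retinas with antibodies to the tag, a method named translating ribosome affinity purification (TRAP), so the values are those of cells in which that promoter was active, plus whatever other retinal RNA came through the pull-down.

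Several limits belong to the design. Each library was a pool of 3 biological replicates, so every condition is 1 pool, and p-values measure the spread between pools that also differed in day, operation or eye. Days 3, 7 and 11 occur only on the contralateral side, so time since surgery and a crush of the other nerve cannot be told apart. The 2 sham libraries are opposite eyes of frogs under the same operation and are not independent animals. The labels put the crush in the right eye throughout, except for 1 sentence of the design text that names the left eye. The labels of the samples were followed.

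In an adult frog most ganglion cell axons cross to the opposite side of the brain, and the optic nerve, unlike that of mammals, regrows after a crush. The injured cells switch on growth and stress genes while they lower many genes of mature neuronal function. The intact eye of the same animal is the usual control for such work, and it could itself change through circulating hormones and cytokines, through altered use of the eye, or through the brain targets and commissures that both eyes share.

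The libraries held 16820571 to 59265354 expected counts, the read numbers per gene that RSEM estimates. Levels are given as counts per 1000000 library counts (CPM), scaled by the trimmed mean of M values (TMM) over these 7 libraries unless stated. Ganglion cell markers summed to 19170 to 20027 CPM without crush and to 19261 to 20576 CPM in contralateral eyes, against 2239 CPM in the single total retina library. Photoreceptor markers summed to 4559 to 5611 and 4820 to 5366 CPM, against 55248 CPM in total retina. Both total retina sums were scaled by TMM over these 7 libraries and total retina together, so their scale differs somewhat. All 7 libraries were thus high in ganglion cell and low in photoreceptor markers beside total retina, and neither sum separated the groups. The most abundant ganglion cell markers were ina.S, an internexin of the neuronal cytoskeleton, at 3908 ± 113 CPM without crush (SD, n = 3) and 4002 ± 112 CPM contralaterally (SD, n = 4), and rbpms2.L, an RNA-binding protein, at 3355 ± 99.1 and 3233 ± 102 CPM. The mRNA of the ribosomal protein used as the tag, rpl10a.S, was at 538 ± 19.4 and 538 ± 43.1 CPM, but reads of the transgene and of the endogenous gene were not separated. In a principal component analysis of log2 CPM, the first component (21.2% of the variance) set the naive library apart from the other 6, and the next components (19.2% and 17%) set apart contralateral days 7 and 3. On the first component contralateral eyes scored 14.1 to 29.7, the left and right sham eyes 12.8 and 9.03 and the naive library -103. The groups thus did not overlap, though the gap between sham and contralateral eyes was small beside the distance to the naive library. On the next 2 components the groups overlapped.

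No gene passed an adjusted p of 0.05 in edgeR's quasi-likelihood test with Benjamini-Hochberg adjustment, that is 0 of 26596 genes tested (0%). The smallest adjusted p was 0.0787, for sik1.S. At an unadjusted p under 0.05 there were 1805 genes (6.79%), of which 835 were higher (3.14%) and 970 lower (3.65%) in contralateral eyes. The 4 contralateral values all lay above the 3 others for 969 genes (3.64%) and all below for 997 (3.75%). DESeq2 called 18 genes (0.0677%) and limma-voom called 0 (0%), with 1965 and 2303 genes at an unadjusted p under 0.05. Several of the 18 were higher in contralateral eyes at means of only 0.306 (cdyl2.L) to 0.624 CPM (lep.S), and npff.S, called lower, was at 0.97 CPM. Such genes can pass the filter on low counts through the group where they are high, so these calls may follow in part from the filter. For example, LOC101733581.L was at 0 CPM in each library without crush. A count of 0 does not show that levels were equal, and the intervals give the sizes that the fit allows. The fit counts the 2 sham eyes as separate replicates, so its intervals may be too narrow. With the sham libraries summed, 1235 of 27539 genes tested had an unadjusted p under 0.05 in edgeR. This is a smaller share than the 6.79% of the main fit. It is also under 0.05, the share that this threshold gives when no gene differs. The shares given below for gene lists and sets come from the main fit, with the sham eyes counted separately. Of 13012 genes at 10 CPM or more, 12986 (99.8%) had a 95% interval that lay within a 2-fold difference either way, with a median standard error of 0.13 on the log2 scale. Among 8908 genes at 1 to 10 CPM this held for 5093 (57.2%), and among 4676 genes under 1 CPM for 0. At 10 CPM or more, 1 gene had an estimated difference over 2-fold, a gene model with no symbol, Xelaev18022531m, at -1.04 log2 (adjusted p = 0.736, edgeR), named here after its value was seen.

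**Figure D1:**
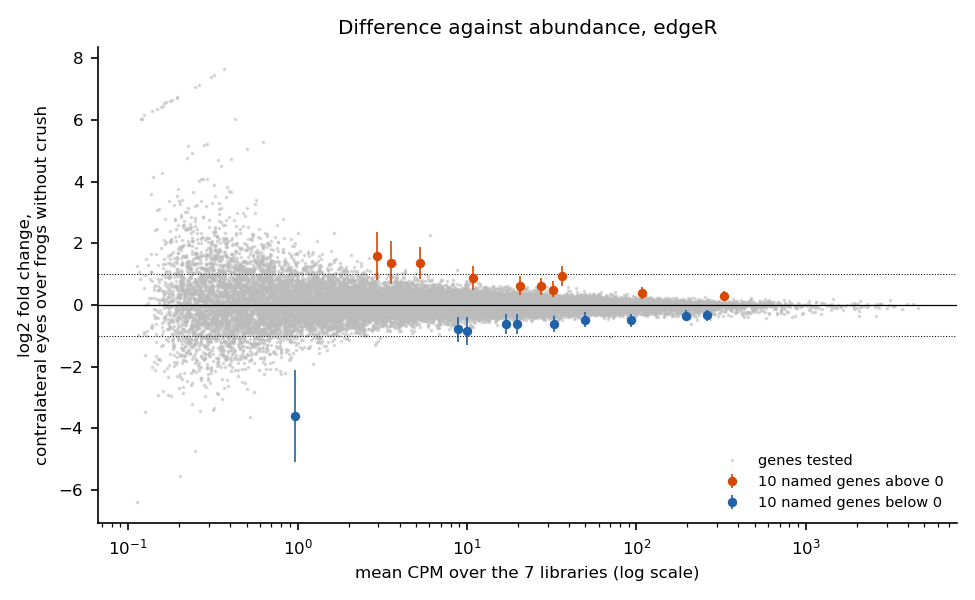
Fitted log2 difference of contralateral eyes over frogs without crush against mean CPM over the 7 libraries (log axis), with 1 grey point per gene tested. Orange and blue points are the 20 named genes with 95% intervals from edgeR, and dotted lines mark 2-fold; the cloud narrows as CPM grows, and no gene passed the adjusted threshold.

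The gene closest to the threshold was sik1.S, a salt-inducible kinase whose transcription is known to rise with cyclic AMP signalling. It was at 26.5 CPM in naive eyes, 22.2 and 23.4 CPM in the left and right sham eyes, and 34.9, 43.4, 43.4 and 62.5 CPM in contralateral eyes of days 1, 3, 7 and 11. All 4 contralateral pools lay above all 3 others, and day 11 was the highest. The fitted difference was 0.94 ± 0.15 log2 (SE; adjusted p = 0.0787, edgeR). Leaving out 1 library at a time, its adjusted p was 0.0174 without contralateral day 1, which passes, and up to 0.63, without the left sham eye, and with the 2 sham libraries summed it was 0.743. Scaled over 11 libraries, sik1.S was at 25.7, 21.4 and 22.5 CPM without crush and at 28.9, 32.1, 16.6 and 23.9 CPM in crushed eyes of days 1, 3, 7 and 11. The crushed eyes of days 1 and 3 thus lay above the frogs without crush and that of day 7 below them, and each was lower than the contralateral eye of its day, at 33.7, 41.9, 41.9 and 60.2 CPM on that scale. The related sik2-like.S, chosen after its values were seen, was at 19.9, 19.8 and 17.6 CPM without crush and at 22.2, 27.4, 33.1 and 31.7 CPM contralaterally on that same scale (0.58 log2, adjusted p = 0.515).

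The other 9 genes taken for the smallest p-values above 0 had contralateral values above every value without crush, each with an adjusted p over the threshold. Of all genes tested, 3.64% were so separated. These 9 were chosen by p-value in the same 7 libraries, so their separation largely follows from the choice. The largest in size were baiap3.S, which acts in dense-core vesicle traffic, at 1.59 ± 0.37 log2, nf1.S, the Ras inhibitor neurofibromin, at 1.37 ± 0.33, and brf1.L, a subunit of the initiation factor of RNA polymerase III, at 1.36 ± 0.26. For brf1.L the 3 libraries without crush held 2.6 to 3.06 CPM and the contralateral eyes 6.19 to 8.51 CPM, with the highest value at day 1. The left sham eye, which shares day and side with contralateral day 1, was at 2.6 CPM, a comparison of 1 pool with 1 pool. On the 11-library scale brf1.L was at 2.68, 2.5 and 2.95 CPM in naive, left sham and right sham eyes. Crushed eyes of days 1, 3, 7 and 11 held 4.48, 2.82, 6.49 and 5.44 CPM on that scale, so day 3 lay inside the range without crush. The most abundant were both copies of pde6h, the inhibitory subunit of the cone photoreceptor phosphodiesterase. The S copy went from 286 to 298 CPM without crush to 341 to 368 CPM contralaterally, a difference of 0.30 ± 0.07, and the L copy from 86.8 to 96.6 CPM to 106 to 131 CPM, a difference of 0.38 ± 0.09. The remaining 4 were mprip-like.S at 0.87, mdn1.L, the ribosome assembly factor midasin, at 0.62, the iron-sensing ubiquitin ligase subunit fbxl5.S at 0.61 and r3hdm2.L at 0.50 log2. These values are for single copies. With L and S copies summed, baiap3 fell to 0.46, nf1 to 0.86, mprip-like to 0.62, r3hdm2 to 0.25 and fbxl5 to 0.20 log2. Those of sik1, brf1 and mdn1 stayed at 0.94, 1.37 and 0.62, and pde6h was at 0.32.

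The 10 genes taken below 0 were likewise separated between the groups, as were 3.75% of all genes tested with contralateral eyes lower. These 10 were chosen in the same way, so their separation also largely follows from the choice. The largest difference was in npff.S, the precursor of neuropeptide FF, at 1.93, 2.58 and 1.68 CPM in naive, left sham and right sham eyes. In contralateral eyes of days 1, 3, 7 and 11 it was at 0.269, 0.0859, 0 and 0.247 CPM, lower at every day including day 1 (-3.61 ± 0.72 log2, adjusted p = 0.256, edgeR). The crushed eyes held 0.0763, 3.53, 0 and 0 CPM at days 1, 3, 7 and 11 (11-library scale). The low level of this S copy was thus found in both eyes of frogs with a crush at days 1, 7 and 11, and day 3 was the exception. The L copy, npff.L, too low to test, was at 0 CPM in every library without crush. It was at 0, 0.166, 0 and 0 CPM contralaterally and at 0.133, 2.47, 7.71 and 1.29 CPM in crushed eyes. The gene as a whole was therefore not low in the crushed eye of day 7. The most abundant was chrnb3.L, a nicotinic acetylcholine receptor subunit, at 268 to 317 CPM without crush and 199 to 266 CPM contralaterally (-0.33 ± 0.09 log2). The phosphate exporter xpr1.L was at 207 to 236 against 149 to 193 CPM (-0.35), and ocel1.L at 104 to 124 against 60.2 to 90.8 CPM (-0.50). Further genes were cnnm3-like.L at -0.63, the gamma-secretase subunit psenen.L at -0.48, the lysosomal glucuronidase gusb.S at -0.63, fam213a.S at -0.61, tex261.S at -0.79 and tmbim1.S at -0.84 log2. With L and S copies summed, tex261 was at -0.49 and gusb at -0.51, while cnnm3-like was at -0.62 log2. For tmbim1.S the naive library, at 8.94 CPM, was nearer to the contralateral range of 5.64 to 8.04 CPM than to the sham eyes at 15.2 and 16.1 CPM.

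**Figure D2:**
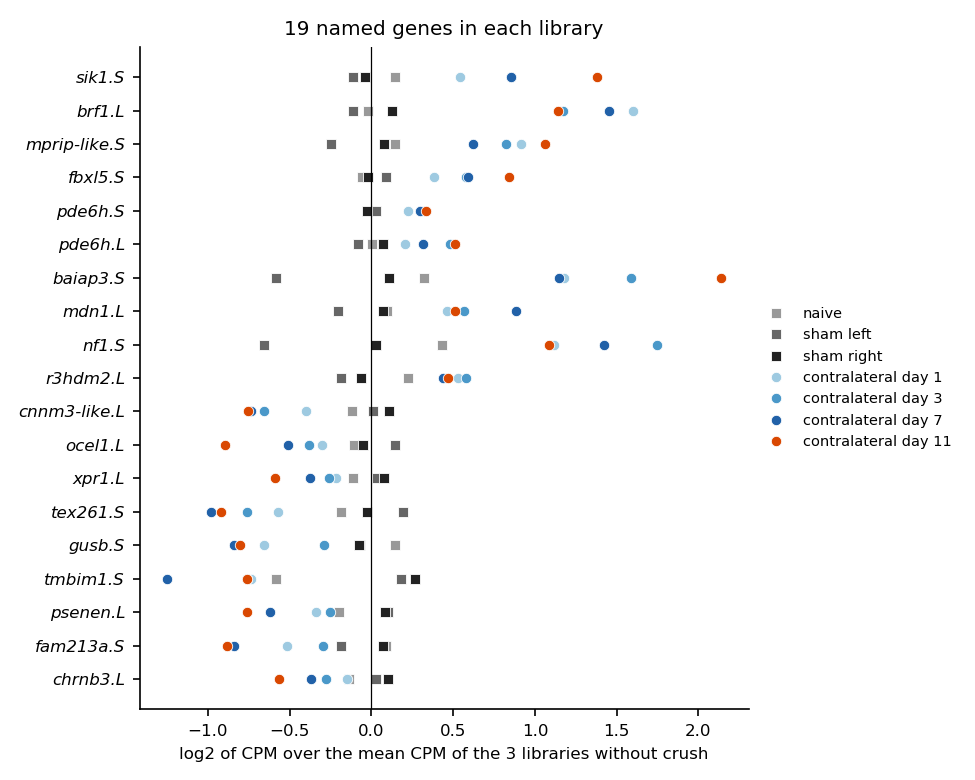
Log2 of each library's CPM over the mean of the 3 libraries without crush, for 19 of the 20 named genes (npff.S, which has a value of 0, is given in the text). Squares are libraries without crush and circles contralateral eyes. The circles lie to the right of the squares in the upper 10 genes and to the left in the lower 9. The genes were chosen by p-value in the same libraries, so this separation largely follows from the choice.

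The direction of the differences moved with the ratio of a gene's level in the TRAP libraries to its level in the single total retina library. How much of a gene's signal lies in ganglion cells was not measured. In the deposited TPM, which also divide by transcript length, all 10 named genes above 0 were lower in the mean of the 7 TRAP libraries than in total retina, for example sik1.S at 19.7 against 93.1 and pde6h.S at 98.8 against 2086 TPM. Of the 9 named genes below 0 that reached a summed TPM of 1, 3 were lower than in total retina. Among all 24973 genes with such a TPM, 56.7% were lower than in total retina, compared with 69.8% of the 797 at an unadjusted p under 0.05 above 0 and 37.9% of the 950 below 0. Genes over 2 times total retina (2868) had a median difference of -0.04 log2, with 50 above and 221 below 0 at that p. Genes under 0.5 of total retina (5756) had a median of 0.06, with 246 above and 104 below 0, and their median at contralateral days 1, 3, 7 and 11 was 0.07, 0.06, 0.05 and 0.19. The photoreceptor marker list did not separate the groups in its sum, and its median was 0.00. Of 60 markers tested, 5 were above 0 (8.33%, beside 3.14% of all genes) and 2 below (3.33%, beside 3.65%) at an unadjusted p under 0.05. Both pde6h copies, members of the list, were above 0. The most abundant, gnb1.L, was at 786 ± 52.7 and 797 ± 54.2 CPM and gnb1.S at 618 ± 18.7 and 646 ± 55.7 CPM. Both gnb1 copies were highest at contralateral day 11, at 877 and 729 CPM. How much of the gnb1 signal comes from photoreceptors was not tested. Markers of the pigment epithelium, a layer that was peeled off before lysis, summed to 13 to 14.3 CPM without crush and to 24.7, 15.9, 14.3 and 28.5 CPM in contralateral eyes of days 1, 3, 7 and 11. Only 5 of their 15 genes were expressed enough to test, with a median of 0.62 log2. Of these, rpe65.L, the retinoid isomerase, was at 8.91 ± 1.26 and 14.1 ± 6.12 CPM and the pigment enzyme tyrp1.L at 2.25 ± 0.646 and 3.16 ± 0.967 CPM. The part of RNA from other retinal cells in the differences was not tested, and fewer cells of a type and less RNA per cell cannot be told apart in such pools.

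Genes of peptide signalling formed the list with the highest share of members lower at the unadjusted level among the 28 lists. Over all genes tested, 3.14% were higher and 3.65% lower at that level. Of 28 neuropeptide and granule genes tested, 24 had an estimate below 0, 12 (42.9%) were lower at an unadjusted p under 0.05 and 0 were higher, and the median was -0.25 log2 beside 0.00 over all genes. None passed the adjusted threshold, and the groups were fully separated in 4, all lower. Of all genes tested, 3.75% were separated with contralateral eyes lower. The list summed to 6778, 7484 and 7911 CPM in naive, left sham and right sham eyes and to 6803, 6818, 6140 and 4889 CPM in contralateral eyes of days 1, 3, 7 and 11. The naive library thus lay below contralateral days 1 and 3, and only days 7 and 11 were under all 3 libraries without crush. The naive library was also the lowest of its group in 12 of the 12 genes, and day 11 was the lowest of all 7 libraries in 11 of them.

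The most abundant member was chgb.S, the granule protein chromogranin B, at 2227 ± 104 CPM without crush and 1935 ± 286 CPM contralaterally (-0.20 ± 0.09 log2, adjusted p = 0.668, edgeR). The next was scg5.L, a chaperone of the prohormone convertase that matures peptides, at 568, 717 and 761 CPM against 585, 584, 490 and 383 CPM (-0.42 ± 0.15, adjusted p = 0.617). Here the naive value was below those of contralateral days 1 and 3. Its S copy had the same order, with 425 CPM in the naive library and 322 CPM at day 11 for scg5.S. Among the peptides, the examples that follow were chosen after their values were seen. Somatostatin, sst.S, was at 222, 277 and 289 CPM without crush and 206, 201, 152 and 117 CPM contralaterally (-0.63 ± 0.20, adjusted p = 0.6), with no overlap. Cholecystokinin, cck.L, was at 159 to 176 CPM against 157, 131, 123 and 99.4 CPM (-0.39 ± 0.11, adjusted p = 0.538), again with no overlap but with the day 1 value next to the naive one. Gastrin-releasing peptide showed the same sign in both copies, grp.S at -0.39 and grp.L at -0.35 log2, with groups that overlapped.

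Genes of electrical signalling also had medians below 0. Of 59 ion channel and pump genes tested, 8 were lower (13.6%, beside 3.65% of all genes) and 2 higher (3.39%, beside 3.14%) at an unadjusted p under 0.05, with a median of -0.08 log2. Their sum was 5852 to 6519 CPM without crush and 5640, 6051, 5324 and 4756 CPM in contralateral eyes of days 1, 3, 7 and 11, so day 3 overlapped and day 11 was the lowest. The most abundant were the sodium pump subunits atp1b3.S, at 1195 ± 135 against 1016 ± 134 CPM, and atp1b3.L, at 988 ± 108 against 769 ± 114 CPM (-0.36 ± 0.09, adjusted p = 0.538, edgeR). Sodium channel beta subunits scn2b.L and scn3b.L, chosen after their values were seen, had separated groups at -0.24 and -0.28 log2. Of 47 neurotransmitter receptor genes, 5 were lower (10.6%) and 1 higher (2.13%), with a median of -0.09 and sums of 2061 to 2254 against 2000, 2126, 1767 and 1595 CPM. The most abundant were the metabotropic GABA receptor copies gabbr1.L, at 420 ± 31.5 against 366 ± 48.8 CPM, and gabbr1.S, at 287 ± 4.82 against 261 ± 36.8 CPM. Genes of synaptic vesicle release, which serve the same axons, had a median of 0.06 in 25 tested, with snap25.L at 2730 ± 33.9 against 2787 ± 168 CPM and cplx1.1, a complexin, at 2595 ± 136 against 2632 ± 240 CPM.

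Genes that respond to activity and hormones had medians above 0, as did other lists. Medians of like size were found for oligodendrocyte and Schwann cell (0.15), Mueller glia and astrocyte (0.13) and amacrine and horizontal cell markers (0.12). Of 47 immediate-early genes, which neurons induce within minutes to hours of stimulation, 5 were higher (10.6%, beside 3.14% of all genes) and 0 lower at an unadjusted p under 0.05, with a median of 0.15 log2. The list summed to 921, 961 and 1024 CPM without crush and to 1012, 1018, 1066 and 1198 CPM contralaterally, so the right sham eye overlapped days 1 and 3. Its most abundant members were jund.S, at 147 ± 8.17 against 155 ± 18.3 CPM, and the trophic factor gene bdnf.L, at 120 ± 6.68 against 133 ± 33.3 CPM. Both copies of crem, a cyclic AMP-responsive transcription factor chosen after its values were seen, had separated groups. The L copy, crem.L, was at 16.4, 10.2 and 15.8 CPM against 17.4, 20.4, 24.9 and 19.7 CPM (0.55 ± 0.18 log2, adjusted p = 0.583), and crem.S at 21.4, 19.5 and 24 CPM against 24.2, 25.4, 33.7 and 31.6 CPM. In each copy the gap between the highest value without crush and day 1 was small. Both copies were far higher in crushed eyes of days 3, 7 and 11, and crem.L belongs to the crush-induced set described below. On the 11-library scale crem.L was there at 318, 358 and 216 CPM and crem.S at 273, 425 and 270 CPM.

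Of 31 glucocorticoid-responsive genes 2 were higher (6.45%) and 1 lower (3.23%) at an unadjusted p under 0.05, beside 3.14% and 3.65% of all genes. The list had a median of 0.17 log2 and sums of 534 to 551 CPM without crush and 579 to 605 CPM contralaterally. These sums did not overlap. Among its members klf9.L, a transcription factor induced by glucocorticoid and thyroid hormone and chosen after its values were seen, was at 31.5, 28.9 and 26.8 against 33.2, 35.2, 35.7 and 44.3 CPM (0.35 ± 0.12, adjusted p = 0.584). The most abundant members were the transcriptional repressor copies bcl6.S, at 98.6 ± 2.1 against 108 ± 2.81 CPM, and bcl6.L, at 76.7 ± 6.42 against 83.9 ± 3.8 CPM. Circadian clock genes, which set the daily rhythm of cells, had a median of 0.14 log2 in 26 tested, with 0 at an unadjusted p under 0.05 in either direction. The most abundant were bhlhe40.L, at 113 ± 3.26 against 125 ± 15.8 CPM, and csnk1e.S, at 114 ± 8.34 against 117 ± 2.67 CPM.

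Of 20 interferon and antigen presentation genes 3 were lower (15%, beside 3.65% of all genes) and 0 higher at an unadjusted p under 0.05, with a median of -0.12 log2. Their sums of 118 to 123 CPM without crush and 102 to 108 CPM contralaterally did not overlap. The most abundant, stat2.L, which carries interferon signals to the nucleus, was at 36.1, 36.8 and 39.6 CPM against 26.4, 32.1, 29 and 24.7 CPM (-0.42 ± 0.12, adjusted p = 0.558, edgeR), and the next, irf3.L, was at 16.6 ± 1.77 against 17.5 ± 2.1 CPM. Of 29 inflammation genes 1 was higher and 1 lower (3.45% each, near the shares over all genes), with rela.L at 52.7 ± 1.65 against 48 ± 3.26 CPM and the inhibitor nfkbia.L at 49.2 ± 0.497 against 41.7 ± 3.85 CPM. Leukocyte and microglia markers summed to 13.5 to 21 CPM and 14.3 to 15.4 CPM, with 6 of 15 tested. Of these itgb2.L was at 6.68 ± 2.48 against 6.96 ± 1.1 CPM and cxcr4.S at 3.05 ± 1.57 against 2.98 ± 0.946 CPM.

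Of 28 hypoxia and glycolysis genes 6 were higher (21.4%, beside 3.14% of all genes) and 0 lower at an unadjusted p under 0.05, with a median of 0.05 log2 and sums of 3404 to 3648 CPM without crush and 3379 to 3575 CPM contralaterally, which overlapped. The 6 include both copies of the oxygen-regulated transcription factor gene hif1a, named after their values were seen, with hif1a.S at 19.4, 18.7 and 17.8 CPM against 24, 24.3, 21.7 and 24.3 CPM (0.34 ± 0.13 log2, adjusted p = 0.631, edgeR) and hif1a.L overlapping at 0.25 log2. The most abundant members, the glycolytic enzyme genes tpi1.L and pgam1.S, were at 906 ± 34.2 against 843 ± 30.1 CPM and at 441 ± 22.2 against 442 ± 8.56 CPM. Of 19 endothelial and blood cell markers 4 were higher (21.1%, beside 3.14% of all genes) and 0 lower, with a median of -0.02 log2 and sums of 31.1 to 39.5 CPM against 35.6 to 45 CPM, which overlapped. Of these the endothelial receptor tie1.L was at 8.66 ± 2.94 against 7.56 ± 1.55 CPM and the alpha globin hba1.L at 4.77 ± 2.23 against 7.7 ± 3.37 CPM. None of the members of either list passed the adjusted threshold.

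**Figure D3:**
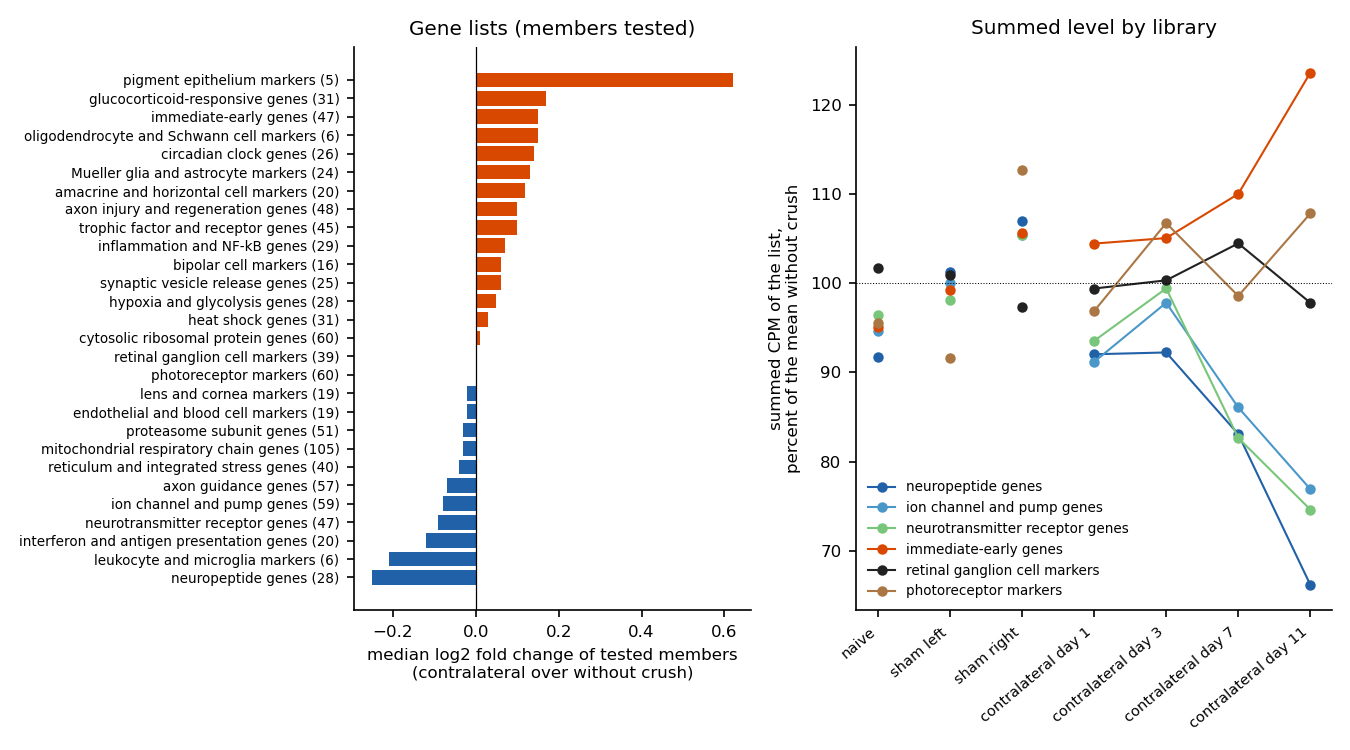
Left, median fitted log2 difference of the tested members of each of 28 gene lists, with the number tested in brackets. Right, summed CPM of 6 lists in each library as a percent of the mean of the 3 libraries without crush; neuropeptide genes end lowest at day 11 (4889 CPM), and the naive library lies near contralateral days 1 and 3.

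The growth and housekeeping machinery was close to 0. Cytosolic ribosomal protein genes had a median of 0.01 log2 in 60 tested, respiratory chain genes -0.03 in 105 and proteasome genes -0.03 in 51. An example is rpl3.L at 1106 ± 36.4 against 1171 ± 87.7 CPM. Those of the other lists are atp5b.S at 1032 ± 59 against 1045 ± 15.4, atp5a1.S at 486 ± 28.5 against 487 ± 47, psmd3.L at 220 ± 20.7 against 206 ± 16.9 and psmc5.L at 181 ± 6.14 against 176 ± 12.3 CPM.

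Axon injury and regeneration genes had a median of 0.10 log2 in 48 tested, with 4 higher (8.33%, beside 3.14% of all genes) and 1 lower (2.08%, beside 3.65%) at an unadjusted p under 0.05. The most abundant, the growth cone protein basp1.S, was at 1532 ± 53.1 against 1473 ± 121 CPM and basp1.L at 1187 ± 20.9 against 1159 ± 69.7 CPM. The transcription factors sox11.L and sox11.S were at -0.07 ± 0.08 and 0.05 ± 0.11 log2, jun.L and jun.S at -0.19 ± 0.19 and 0.07 ± 0.12, and atf3.L and atf3.S at 0.38 ± 0.26 and 0.10 ± 0.29. Of the structural genes, anxa2.S was at 0.01 ± 0.15 and vim.L at 0.08 ± 0.23. All of these groups overlapped. The filamin flnc.L and the cytokine feedback inhibitor socs3.S, both under 3 CPM in each library, were at 0.53 ± 1.23 and 1.39 ± 1.15, and fosl1.L was too low to test.

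Whether genes that a crush changes in the injured eye moved the same way in the intact eye was examined with sets taken from the crushed libraries alone. Those crushed eyes are of the same frogs as the contralateral eyes of the same days. Differences that both eyes of a pool share can therefore enter the choice, and the sets are not independent of the contralateral libraries. The crush-induced set held 400 genes at least 8-fold higher at both days 7 and 11 than at day 1, and the crush-lost set 346 genes at least 8-fold lower. Of the 400, 310 passed the filter on low counts, which used these same 7 libraries. Genes nearly silent without crush could pass it through the contralateral eyes alone, so the counts above 0 may be partly set by the filter. These 310 had a median of 0.18 log2 in contralateral eyes, with 207 above and 103 below 0 and 0 called. At an unadjusted p under 0.05, 25 were higher (8.06%) and 1 lower (0.323%), beside 3.14% and 3.65% of all genes tested. The lost genes had a median of -0.08 log2, with 116 above and 230 below 0 and 0 called. At that p, 9 were higher (2.6%) and 54 lower (15.6%), beside 3.14% and 3.65% of all genes tested. Both sets were chosen among genes with 200 counts over crushed days 1, 7 and 11. Of the 20879 such genes tested, 735 were higher and 910 lower. Among genes over 2 times total retina, 1.74% were higher and 7.71% lower, so part of the share lower was not particular to the lost set. By day, the induced set's median over frogs without crush was 0.00, 0.10, 0.14 and 0.31 at days 1, 3, 7 and 11, and the lost set's was -0.03, -0.05, -0.10 and -0.15. The crushed eyes were at 0.00, 2.62, 4.52 and 4.63 and at -0.01, -1.0, -3.67 and -4.15. All 20985 genes with 200 counts had medians of 0.00 to 0.01 in the contralateral eyes.

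**Figure D4:**
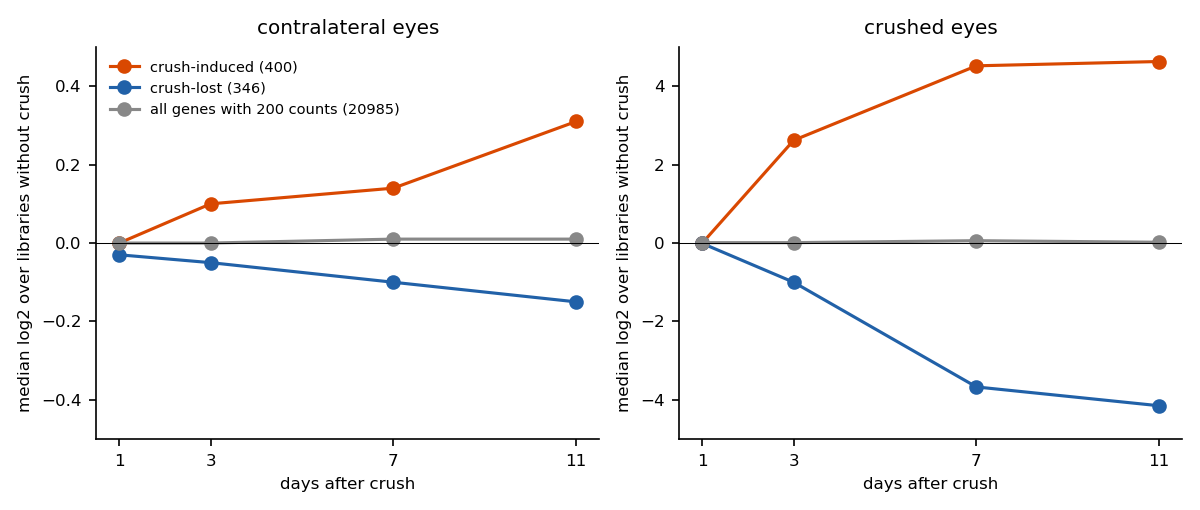
Median log2 of CPM over the mean of the libraries without crush against days after crush, for the crush-induced set (400 genes), the crush-lost set (346) and all genes with 200 counts (20985). The vertical axis of the left panel (contralateral eyes) spans a range 10 times smaller than that of the right panel (crushed eyes); the contralateral medians reach 0.31 and -0.15 at day 11.

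In summed level, on the 11-library scale, the lost set stood at 38694 to 40097 CPM without crush. Contralateral eyes of days 1, 3, 7 and 11 held 38601, 37441, 36879 and 35075 CPM, and crushed eyes 37443, 19213, 2320 and 1877 CPM. Every contralateral value was below every value without crush, day 1 only narrowly. The contralateral shift amounted to 10.3%, 7.15% and 11.9% of that of the crushed eye at days 3, 7 and 11. Of the induced genes, 216 were under 1 CPM in the crushed eye of day 1, a subset chosen after the data were seen. They summed to 72.8 to 84 CPM without crush, to 94.6, 86.4, 102 and 110 CPM contralaterally, and to 55.3, 1034, 3772 and 3953 CPM in crushed eyes. Here the contralateral shift was 0.76%, 0.621% and 0.79% of the crushed eye's at days 3, 7 and 11. All 400 induced genes summed to 1898 to 1981 CPM without crush and to 1954, 2126, 2313 and 2134 CPM contralaterally, so day 1 lay inside the range without crush and the later days above it. For this full set the shift was 1.12%, 1.12% and 0.535% of that of the crushed eye.

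The gene of this kind with the clearest values was lep.S, leptin, a cytokine-like hormone, named after its values were seen. It had 3, 0 and 0 counts in naive, left sham and right sham eyes and 14, 24, 31 and 68 counts in contralateral eyes of days 1, 3, 7 and 11. That is a ratio of 37.4 per count sequenced (95% interval 12.5 to 184, counting error only). DESeq2 called lep.S (adjusted p = 0.0162) and edgeR did not (adjusted p = 0.515). With so few counts without crush, lep.S passed the filter on low counts through the contralateral eyes alone. The ratio and the DESeq2 call therefore follow in part from how the gene was chosen and filtered. In CPM over 11 libraries lep.S was at 0.242, 0.663, 1.78 and 1.47 contralaterally and at 0.477, 77.4, 248 and 197 in crushed eyes. From day 3 on the contralateral level was 0.857%, 0.716% and 0.745% of that in the crushed eye of the same day. At day 1, with both eyes under 1 CPM, it was 50.8%. The L copy, lep.L, also in the induced set, was too low to test and did not rise with day. It had 0 counts in each library without crush and 11, 1, 7 and 0 counts in contralateral eyes of days 1, 3, 7 and 11. Its contralateral level was 0.368%, 0.625% and 0% of that in the crushed eye at days 3, 7 and 11. At day 1 the crushed eye held 0 CPM of lep.L, less than the 0.19 CPM of the contralateral eye. Next taken were induced genes under 1 CPM in the crushed eye of day 1 and at 50 CPM or more in that of a later day, lep.S included. Some were not silent without crush, such as Xelaev18024612m at 2.07, 1.14 and 1.56 CPM. Their contralateral excess over frogs without crush was a median of 0.831% of the crushed eye's in 3 genes at day 3, 0.942% in 16 at day 7 and 0.739% in 21 at day 11. Of these, 3, 14 and 19 lay above the mean without crush. The design text states that libraries were multiplexed in pairs, without saying which shared a run. The part of reads or RNA passed from a crushed-eye library in these low levels was not tested.

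The receptor gene lepr.S was at 1.41, 1.89 and 1.14 CPM without crush and 2.3, 3.46, 3.62 and 3.01 CPM contralaterally (1.04 ± 0.37 log2, adjusted p = 0.589, edgeR), while lepr.L overlapped at 0.18 log2. The inhibitor socs3.L, a target of such receptors, was at 0, 0.189 and 1.5 CPM against 2.06, 1.17, 3.56 and 2.94 CPM, with the right sham eye inside the contralateral range (2.35 ± 0.94 log2, adjusted p = 0.665, edgeR). The stress factor ddit3.L was at 10.2, 11.6 and 11.7 CPM against 13.6, 15.9, 14.8 and 14.6 CPM (0.40 ± 0.16, adjusted p = 0.656), with no overlap. Of the lost set, slitrk6.L, a synaptic adhesion protein gene, was at 17.7 to 18.8 CPM against 15.1, 11.5, 10.8 and 9.33 CPM on the 11-library scale (-0.64 log2, adjusted p = 0.538). These genes were chosen after their values were seen. The lost set also holds 7 of the neuropeptide genes, among them grp.S and cck.L, and 1 of the 20 named genes, ocel1.L. It holds 2 ion channel and pump genes and 4 neurotransmitter receptor genes as well. The induced set holds 20 axon injury and 3 immediate-early genes. The accounts of the 2 sets and of these lists are therefore not independent.

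The distance between single libraries put these values beside the spread of the controls. At equal depth, and among genes with 200 counts over the pair, 57 genes differed over 2-fold between the left and right sham eyes (0.372%). The left sham eye and the contralateral eye of day 1, which share side and day, differed in 73 genes (0.474%). The naive library, which held both eyes, differed from the left sham eye in 145, more than either sham eye did from contralateral day 1. The 12 pairs between the groups had a median of 130.5 genes, the 3 pairs within frogs without crush 106 and the 6 pairs among contralateral eyes 94. The range was 65 to 212 between groups, with day 11 giving 162, 170 and 212 genes against the naive, left sham and right sham eyes. Day 11 also held the extreme value in 673 of 1192 genes at 10 CPM or more with an unadjusted p under 0.05, against 91 for day 1, 127 for day 3 and 301 for day 7. Their median distance from frogs without crush, taken in the direction of the fit, was 0.23, 0.22, 0.36 and 0.46 log2 at days 1, 3, 7 and 11. These 1192 genes were chosen by the fit to the same 7 libraries, so distances above 0 follow from the choice. A pool that lies far out also brings more genes into the set. With 1 pool a day, the day cannot be told apart from the pool.

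**Figure D5:**
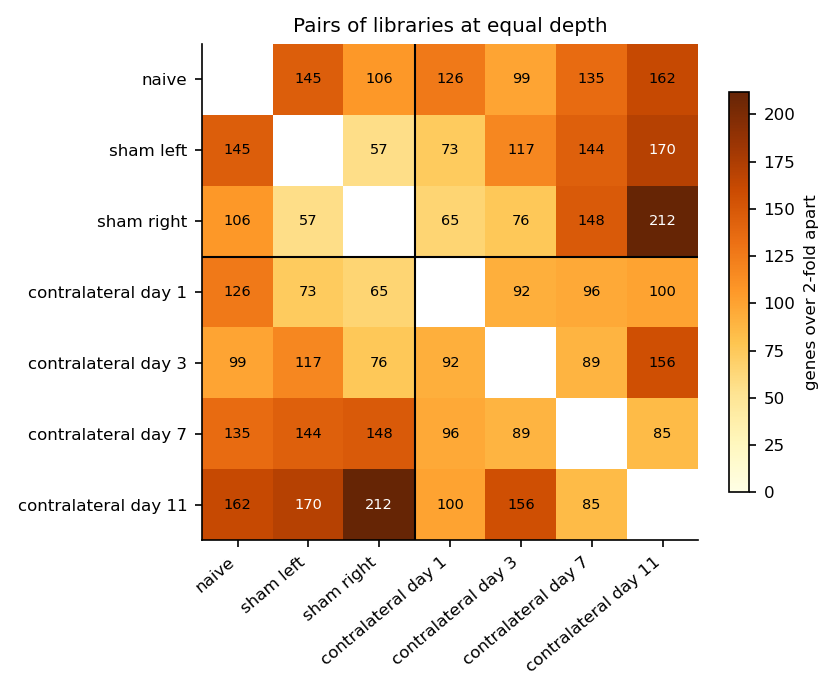
Number of genes over 2-fold apart between each pair of the 7 libraries, after thinning all to the same depth, among genes with 200 counts over the pair. Black lines divide frogs without crush from contralateral eyes; the sham eyes differ least (57 genes) and the right sham eye and contralateral day 11 most (212).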

How the data were processed

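Ribosome-bound RNA from retinas of transgenic Xenopus laevis was sequenced after poly(A) selection. The authors deposited, per the file headers, RSEM expected counts and TPM for 45099 gene models in each library. The submitters' processing notes name Trimmomatic 0.33, Bowtie2 2.2.5 and RSEM 1.2.21; the genome build is not given in the sources used here, so no coordinates are printed. Expected counts were rounded to whole numbers, and 26596 genes passed edgeR's filter on low counts. X. laevis keeps L and S copies of many genes, and reads of near-identical copies may be split between them.

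The 4 contralateral libraries were compared with the 3 without crush by edgeR 4.0.16 (TMM, robust quasi-likelihood test, Benjamini-Hochberg adjustment over all genes), which was tested on simulated data. DESeq2 1.42.0 and limma 3.58.1 were alternatives. TMM over 11 TRAP libraries was used where crushed eyes are shown. TPM served for levels against total retina, as a mean of TRAP libraries.

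Gene lists and members were chosen with earlier results of these data known. Named genes are, in each direction, up to 15 past the threshold, filled to 10 with the smallest p-values (a symbol, at least 100 counts), plus the 2 most abundant members of each list named and genes reported from the crushed eye. One gene that this rule names is not reported here. The 28 lists are shown in the plot of list medians. For pairs, libraries were thinned to 16820590 counts. Tools also included R 4.3.3 and Python 3.11.15. Intervals on counts cover counting error only.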

Additional observations from a re-analysis of the deposited data

Results flagged for a closer look

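The level of tmbim1.S in the contralateral eye of day 7, 5.64 CPM, stood apart from the other 3 contralateral eyes, which held 7.9 to 8.04 CPM, with a gap of 0.940 of the range. Of 62 genes and sums examined in this way 1 was far from its group, where chance gives about 1 in 20.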

How the results depend on the processing

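The count of genes at an adjusted p under 0.05 was 0 in the main analysis and under limma-voom, median-ratio size factors or total counts in edgeR, a filter of 1 CPM in 3 libraries, no robust dispersion, summed sham libraries and summed L and S copies. DESeq2 gave 18 genes, 7 of them among the 20 named. Several of the 18 averaged under 1 CPM, where passing the filter on low counts can rest on 1 group. With no filter on low counts edgeR gave 85, 26 higher and 59 lower; the median degrees of freedom of its test then rose from 22.6 to 170280. Leaving out each library gave 0 to 2 genes, the 2 without contralateral day 1, and 1343 to 2356 at an unadjusted p under 0.05. The 20 named genes kept their sign in all 320 refits, and 26 of these passed the threshold, all under DESeq2, no filter or without contralateral day 1. The 20 genes were chosen for small p-values in the same 7 libraries and had separated groups, so a kept sign largely follows from the choice. Summing L and S copies brought several nearer to 0, for example baiap3.S from 1.59 to 0.46 log2. Leaving out each library moved the median of crush-induced genes from 0.14 to 0.21 log2, of crush-lost genes from -0.11 to -0.06 and of neuropeptide genes from -0.3 without the naive library to -0.16 without day 11. Chosen at 4-fold in place of 8-fold, the crush-induced and crush-lost sets had medians of 0.08 and -0.05, and chosen on total counts 0.28 and -0.05. Over pairs between groups, within contralateral eyes and within frogs without crush, the median number of genes over 2-fold apart was 481, 430.5 and 341 with counts as deposited, and 2, 1 and 2 with 1000 counts over the pair. Genes under 1 CPM carried a median standard error of 1.07 log2, so differences of 2-fold were not detectable there. No paired analysis was possible because the contralateral eyes and the libraries without crush came from different frogs.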
